A study of Mus musculus with 12 samples.

Results

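BV2 microglial cells that carried an shRNA against Anxa2 and had gone through oxygen-glucose deprivation and reoxygenation (OGD/R) were compared with untreated BV2 cells that carried a control shRNA. The libraries named shAnxa2-OGDR (n = 3) were set against those named shCtrl-CTRL (n = 3), 6 of the 12 RNA-seq libraries of the series. These were the nearest of the pairs of groups although they differed in both line and treatment, and the question was what still differed between them. All protein-coding genes that reached a CPM (counts scaled to a common library size by TMM) of 0.5 in at least 3 of the 12 libraries were included, which gave 11626 of the 21834 genes in the count table.

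BV2 is an immortalized mouse microglial line. Both groups were stable lines made by lentiviral transduction of pLKO.1 shRNA vectors and puromycin selection, with 1 line for each shRNA, and the control line carried a control shRNA, so both had been transduced and selected. The shAnxa2-OGDR cells were held for 4 h in glucose-free medium at 1% O2 and then returned to normal medium for 12 h per the labels, while the methods text gives a longer reoxygenation. The shCtrl-CTRL cells had no such treatment. Since the groups differ in the shRNA line and in OGD/R at once, effects of the 2 on a gene cannot be told apart from this pair alone. The remaining groups were the control line after OGD/R (shCtrl-OGDR, n = 3) and the untreated knockdown line (shAnxa2-CTRL, n = 3). They make a second pair, shAnxa2-CTRL against shCtrl-OGDR, with no library of the first. Where OGD/R acts alike in both lines, a difference that follows the line has the same sign in both pairs. A difference that follows the treatment then has opposite signs. An OGD/R change that reverses between the lines moves both pairs in the same direction. The same sign in both pairs therefore does not by itself show a line difference.

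Anxa2 encodes annexin A2, a calcium-dependent membrane-binding protein that forms a complex with S100A10 and serves at the cell surface as a platform for plasminogen activation. Microglia are the resident macrophages of the brain, and in these cells NF-κB, the transcription factor family held in the cytoplasm by IκB proteins, drives cytokine and chemokine genes when it is released to the nucleus. Oxygen deprivation acts through hypoxia-inducible factors, which raise genes of glycolysis and of oxygen supply.

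The 6 libraries held 19946882 to 27288843 counts, and the common biological coefficient of variation over the 12 libraries was 5.35%. The study states 3 biological replicates for each line, but the labels do not say whether the libraries came from separate cultures, so the p-values measure the spread between these libraries, which may be technical. The titles put the libraries in their groups. The field for cell type reads WT for the libraries titled shAnxa2-CTRL and Anxa2 knockdown for those titled shCtrl-OGDR, and the Anxa2 counts followed the titles. All 15 markers of microglia and macrophages that were examined had counts in each of the 6 libraries, with Csf1r at 486 to 590 CPM and Lyz2 at 688 to 1103 CPM, whereas markers that define microglia in tissue were low (P2ry12 at 1.92 to 2.66 CPM and Cx3cr1 at 2.67 to 3.59 CPM). The astrocyte gene Aqp4, the neuronal gene Snap25, the oligodendrocyte genes Mog and Olig2 and the fibroblast gene Dcn were at 0 in all 6. Of 6 genes of other brain and stromal cells that could be tested, Slc1a2 was called higher, and it lost the call under most alternatives.

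The hypoxia targets did not follow the titles in the same way in both lines. In the control line 16 of 26 were higher after OGD/R, with a median log2 fold change of 0.46. In the knockdown line the median was −0.53 and 18 of the 26 were lower in the libraries titled OGDR. Of 20 glycolysis genes, 15 were higher after OGD/R in the control line and 15 were lower in the knockdown line. Of 32 DNA replication genes, 28 were lower in the control line and 30 were higher in the knockdown line. Of 56 replication-dependent histone genes, 48 were lower and 38 were higher in the same order. Not every list reversed. Sterol and fatty acid synthesis genes had medians of −0.060 and −0.13. Pdk1, a kinase that keeps pyruvate out of the mitochondrion, had 148, 144 and 157 CPM in shCtrl-CTRL, 237, 257 and 256 CPM in shCtrl-OGDR, 218, 237 and 225 CPM in shAnxa2-CTRL and 140.03, 154 and 157 CPM in shAnxa2-OGDR (a gene chosen after its values were seen). In this gene the untreated knockdown libraries were near the control line after OGD/R, and the knockdown libraries after OGD/R overlapped the untreated control line. The treatment of each knockdown library rests on its title and was not tested further. Were these titles exchanged, the pair described here would compare the lines without treatment, the second pair would compare them after OGD/R, and each OGD/R change in the knockdown line would turn its sign.

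Anxa2 was lower in every shAnxa2-OGDR library. The gene (chr9:69360902-69399077, plus strand, coordinates as in the count table, mm39 per the submitters' processing notes) had 164, 174 and 177 CPM in shCtrl-CTRL and 18.2, 20.1 and 20.6 CPM in shAnxa2-OGDR, so the groups were far apart. Its level was 88.6% lower, or 8.74-fold, with a log2 fold change of −3.13 (SE 0.078, edgeR's quasi-likelihood test, adjusted p = 2.28e-19). A two-sided exact permutation test over the 3 and 3 libraries gave p = 0.1, the smallest value this design allows. In the pair shAnxa2-CTRL against shCtrl-OGDR the log2 fold change was −2.79. The residual Anxa2 of the knockdown line was 34.95, 44.4 and 41.8 CPM without OGD/R, above each of the shAnxa2-OGDR libraries. In bulk RNA, fewer cells that express a gene and less RNA per cell cannot be told apart.

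**Figure D1:**
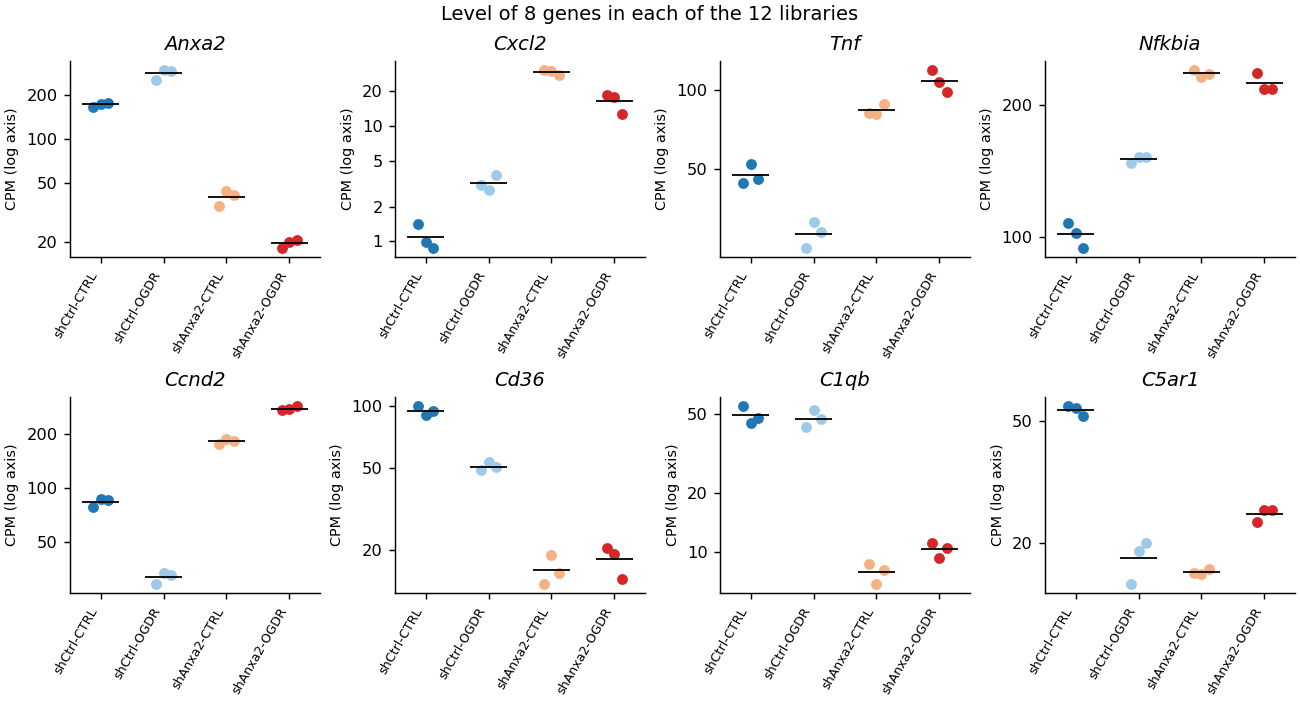
Levels of 8 genes in each of the 12 libraries, in CPM on a log axis, with points for libraries and a black line for the mean of the 3 libraries of a group. In Anxa2, Cxcl2, Nfkbia, Cd36 and C1qb both groups of the knockdown line sit on the same side of both groups of the control line. The same holds for Tnf and Ccnd2, which are lowest in shCtrl-OGDR. C5ar1 is highest in shCtrl-CTRL.

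Genes of proteins that work with annexin A2 were mixed. Of 7 tested, 4 were lower (57.1%) and 2 higher (28.6%), beside 18.4% and 21.5% over all genes. The lower genes include Anxa2, the target of the shRNA. In the second pair 3 of the 7 were lower and 3 higher. S100a10, the partner in the complex, had 62.5, 62.1 and 57.2 CPM in shCtrl-CTRL and 44.99, 44.2 and 40.2 CPM in shAnxa2-OGDR, with no overlap between the groups and a log2 fold change of −0.49 (SE 0.082, edgeR adjusted p = 4.60e-05). In the second pair S100a10 stood at 0.044. Ahnak, a giant scaffold protein that binds the complex, was lower (log2 fold change −0.84), as was Plau, the plasminogen activator urokinase (−0.31). Plaur, the urokinase receptor, was higher, at 0.25. The plasminogen receptor Plgrkt (−0.015, 95% interval −0.17 to 0.14) was not called. Of the 9 other annexins tested, Anxa1 (−0.62), Anxa5 (−0.25) and Anxa6 (−0.21) were lower, Anxa9 was higher (0.45) and 5 were not called. Among 4 further S100 genes S100a13 (0.75) and S100a4 (0.42) were higher and S100a11 was lower (−0.63), a call lost without shAnxa2-OGDR replicate 1 (−0.40, edgeR adjusted p = 0.111).

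Across the genes tested, 2495 were higher (21.5%) and 2142 lower (18.4%) in shAnxa2-OGDR at an adjusted p under 0.05 by edgeR's quasi-likelihood test, 39.9% in either direction. Most of these differences were under 2-fold. The median size of the log2 fold change over all genes was 0.17, and 1850 of the 4637 called genes (39.9%) differed by less than 1.2-fold. At least a 2-fold difference was found in 116 genes that were higher (0.998%) and 143 that were lower (1.23%). The 3 and 3 libraries did not overlap in 49.3% of all genes and in 4397 of the 4637 called genes. The 95% interval of the log2 fold change lay within 1.2-fold in either direction for 3800 genes (32.7%), within 1.5-fold for 8769 genes (75.4%) and within 2-fold for 10410 genes (89.5%).

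By the count of calls and by distance these were the nearest of the groups. The other comparisons called more genes by the same test, with 44.1% for shAnxa2-CTRL against shCtrl-OGDR, 59.2% for the lines without treatment, 67.9% for the lines after OGD/R, 63.4% for OGD/R in the control line and 55.0% for OGD/R in the knockdown line. The mean distance between libraries of shAnxa2-OGDR and shCtrl-CTRL, taken over genes as the root of the mean squared gap in log2(CPM + 0.1), was 0.416, against 0.252 among the shCtrl-CTRL libraries and 0.280 among the shAnxa2-OGDR libraries. It was 0.453 for the second pair and 0.496 to 0.673 for groups that differed only in line or only in treatment. These comparisons share libraries with the pair described here, apart from the second pair.

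The highest fold changes in shAnxa2-OGDR relative to shCtrl-CTRL were those of Cxcl2 and Acod1. Cxcl2, a chemokine that draws neutrophils, had 1.42, 0.989 and 0.882 CPM in shCtrl-CTRL and 18.5, 17.8 and 12.8 CPM in shAnxa2-OGDR, a log2 fold change of 3.91 (SE 0.18, edgeR adjusted p = 1.77e-14). The groups did not overlap, and the lowest treated knockdown library was above every untreated control library. Acod1, the enzyme that makes itaconate in activated macrophages, had 62.4, 60.7 and 53.4 CPM and 524, 447 and 389.98 CPM in the same order, a log2 fold change of 2.95 (SE 0.082, edgeR adjusted p = 1.39e-18). Saa3 (2.15) and Hp (2.05) encode the acute-phase proteins serum amyloid A3 and haptoglobin, and Tnfsf15 (2.11) encodes a cytokine of the TNF family. Others of the 15 genes were the Wnt ligand gene Wnt10a (2.68), Cyp11a1 (2.55), which encodes the enzyme of the first step of steroid hormone synthesis, the kinase gene Tnni3k (2.38), the actin-binding protein gene Ablim1 (2.32), Ntng2 (1.83), the endocytic adaptor gene Epn2 (1.79), Cxxc5 (1.67), Dok7 (1.65) and Trank1 (1.61). Ccnd2, which encodes cyclin D2, stood out for its level, with 78.7, 86.8 and 85.3 CPM in shCtrl-CTRL and 269, 272 and 284 CPM in shAnxa2-OGDR (1.72, SE 0.053, edgeR adjusted p = 1.14e-17). No library of either group came near the other.

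Cd36 and complement genes were among the lowest after Anxa2. Cd36, the scavenger receptor that takes up oxidized lipoprotein and fatty acids, had 100.1, 90.5 and 94.7 CPM in shCtrl-CTRL and 20.5, 19.3 and 14.5 CPM in shAnxa2-OGDR, a log2 fold change of −2.39 (SE 0.094, edgeR adjusted p = 1.37e-15). C1qb, a chain of the complement recognition molecule C1q, had 55.1, 45.2 and 47.8 CPM and 11.1, 9.34 and 10.5 CPM (−2.26, SE 0.10, edgeR adjusted p = 9.73e-15). In both genes the 3 knockdown libraries lay together and well under the controls. C1qa (−2.03) and Lbp (−2.32), which encodes the lipopolysaccharide-binding protein, were lower in the same range. Regulators of transcription were also among the lowest, the ETS factor gene Ets1 (−2.49), the class IIa histone deacetylase gene Hdac9 (−2.21) and Maf (−1.88), a factor of macrophage differentiation. The phosphodiesterase gene Pde3b (−2.71), Lmod3 (−2.50), Arap2 (−2.12), the transporter gene Slc47a1 (−2.11) and the actin regulator gene Evl (−1.97) were lower as well.

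Ranked by the difference in CPM rather than by fold, Lpl came first among the lower genes and Fth1 among the higher. Lpl, lipoprotein lipase, had 2522, 2522 and 2649 CPM in shCtrl-CTRL and 1473, 1576 and 1524 CPM in shAnxa2-OGDR (−0.75, SE 0.056, edgeR adjusted p = 2.46e-10), without overlap. P2rx7, the ATP-gated channel that feeds the inflammasome, had 1336, 1380.2 and 1366 CPM and 677, 707 and 693 CPM (−0.97), and Tmsb4x, which encodes the actin-sequestering thymosin beta 4, had a log2 fold change of −0.86. Iqgap1 (−0.50), Eif4g2 (−0.26), Spp1 (−0.18), the glycolytic enzyme gene Aldoa (−0.18) and Actb (−0.18) were lower by less. Actb lost its call without shAnxa2-OGDR replicate 1 (−0.15, edgeR adjusted p = 0.0512) and was at 0.13 in the second pair. On the higher side stood Fth1, the heavy chain of ferritin, with 4412, 4671 and 4271 CPM in shCtrl-CTRL and 5957, 5750.3 and 6299 CPM in shAnxa2-OGDR (0.43, edgeR adjusted p = 3.00e-08), and Eef2 (0.25), Rplp0 (0.26), Rps2 (0.36), Rpsa (0.35), Rack1 (0.31) and Pkm (0.17). Lars2, which encodes the mitochondrial leucyl-tRNA synthetase, also met the limit, but on a single library. It had 66525 counts in shAnxa2-OGDR replicate 1 against 1500 and 1414 in the other 2, and 984 to 2670 in the shCtrl-CTRL libraries. Its log2 fold change was 4.05 (edgeR adjusted p = 0.000899) with that library and −0.15 (adjusted p = 0.767) without it.

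Of the 4637 genes called here, 2707 (58.4%) were called in the same direction in the second pair, 153 (3.30%) in the opposite direction and 1777 (38.3%) were not called there. Among the 2-fold genes the share with the same direction was larger, 87 of 116 higher genes and 96 of 143 lower genes. Of the genes called in the second pair, 52.8% were called the same way here. Across all genes the log2 fold changes of the pairs had a Pearson r of 0.63, a description over genes that are not independent replicates.

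**Figure D2:**
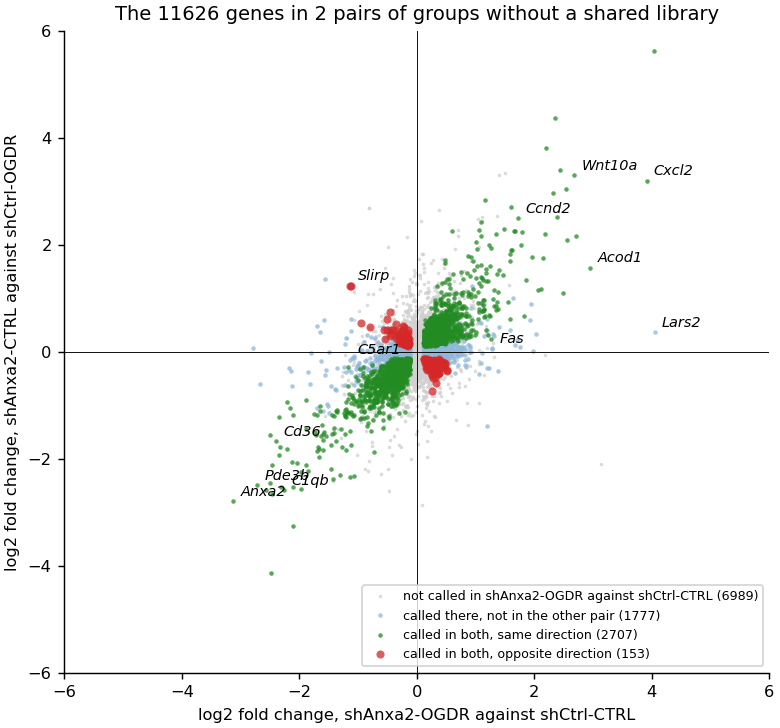
Log2 fold change of each gene tested in shAnxa2-OGDR against shCtrl-CTRL (horizontal) and in shAnxa2-CTRL against shCtrl-OGDR (vertical), which share no library. The 2707 genes called the same way in both lie along the rising diagonal, the 153 called in opposite directions lie off it, and the 1777 called only in the first pair mostly lie near the horizontal axis.

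Ccnd2 was among the genes with the same sign in both pairs, at 1.72 here and 2.51 there, as were Cxcl2 (3.20 there), Acod1 (1.57), Cd36 (−1.67) and C1qb (−2.59). Other genes differed here and hardly there. C5ar1, the receptor for the complement fragment C5a, had 55.9, 55.1 and 51.9 CPM in shCtrl-CTRL and 23.3, 25.5 and 25.5 CPM in shAnxa2-OGDR (−1.13, SE 0.081, edgeR adjusted p = 1.17e-10), and its log2 fold change in the second pair was −0.14. It was lower after OGD/R in the control line, at 14.7, 18.7 and 19.97 CPM, and lower without OGD/R in the knockdown line, at 15.9, 15.7 and 16.4 CPM, so the untreated control libraries were the highest of the 4 groups. Fas, the death receptor, had 2.30, 1.28 and 1.47 CPM in shCtrl-CTRL and 4.80, 4.01 and 3.39 CPM in shAnxa2-OGDR (1.28, SE 0.22, edgeR adjusted p = 5.90e-05) and 0.075 in the second pair. Itgam, the CD11b integrin chain, was at −0.89 here and was not called there (−0.17). Cd40, the costimulatory receptor of antigen-presenting cells, was called in both pairs, at 1.27 and 0.25. Of the 2-fold genes only Slirp (−1.12 here and 1.24 there) and Exph5 (−1.13 and 1.23) were called in opposite directions. C5ar1, Cd40, Itgam, Slirp and Exph5 were named after their values were seen.

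In the model the log2 fold change of a gene is the sum of the line difference without treatment and the OGD/R change in the knockdown line, whose values are given in this order. They had opposite signs in Cxcl2 (4.75 and −0.84), Nfkbia (1.23 and −0.077) and C5ar1 (−1.76 and 0.63). Both were positive in Ccnd2 (1.12 and 0.60), Tnf (0.81 and 0.37) and Il1b (0.86 and 0.23), and in Anxa2 both were negative (−2.09 and −1.04). Cd36 (−2.57 and 0.18) and C1qb (−2.64 and 0.38) also had opposite signs, with a line difference somewhat larger in size than the whole. Each of these values shares a group of libraries with the pair described here.

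Targets and feedback regulators of NF-κB were mostly higher in shAnxa2-OGDR. Of 43 tested, 35 were higher (81.4%) and 2 lower (4.65%), beside 21.5% and 18.4% over all genes. The median log2 fold change was 0.60 beside 0.011 over all genes, and 14 of the calls were at least 2-fold. In the second pair the median was 0.53. Tnf had 44.5, 52.5 and 46.1 CPM in shCtrl-CTRL and 119, 107 and 98.1 CPM in shAnxa2-OGDR (1.18, SE 0.075, edgeR adjusted p = 1.75e-11). Il1b, the precursor of interleukin-1β, had 3.26, 2.86 and 2.17 CPM and 7.14, 5.76 and 4.66 CPM (1.09, SE 0.20, edgeR adjusted p = 0.000138). In neither cytokine gene did the groups overlap. Nos2, the inducible nitric oxide synthase, had 2.38, 3.63 and 3.31 CPM in shCtrl-CTRL and 8.47, 8.38 and 5.43 CPM in shAnxa2-OGDR (1.25, edgeR adjusted p = 1.93e-06), also without overlap. Ptgs2, cyclooxygenase 2, differed less, with 31.9, 29.8 and 29.7 CPM and 41.4, 40.5 and 30.9 CPM (0.31, edgeR adjusted p = 0.00982), and overlapping libraries. Without shAnxa2-OGDR replicate 1 it was at 0.23 and without replicate 2 at 0.24 (edgeR adjusted p = 0.0665 and 0.0666).

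The chemokine genes Ccl4 (0.66), Ccl2 (0.48), Ccl3 (0.47) and Ccl7 (0.34) were higher by less than Cxcl2, Ccl9 was lower (−1.18), and Ccl5 and Cxcl10 were not called. Csf3, the granulocyte growth factor (2.44), Lcn2, the iron-siderophore binding lipocalin 2 (1.59), and Ier3 (1.36) were among the members with the largest fold. The call of Csf3 was lost without shAnxa2-OGDR replicate 2 (2.08, edgeR adjusted p = 0.0552). Inhibitors of NF-κB that it induces itself were among the higher genes. Nfkbia, which encodes IκBα, had 107, 102 and 94.3 CPM in shCtrl-CTRL and 237, 218 and 218 CPM in shAnxa2-OGDR (1.15, SE 0.052, edgeR adjusted p = 1.79e-14), without overlap. Nfkbie (1.05), Tnip1 (0.79), Tnfaip3 (0.75), the gene of the ubiquitin-editing enzyme A20, and Nfkbiz (0.73) were also higher. The subunit genes differed by less, with Nfkb2 at 0.60, Relb at 0.51, Rela, which encodes p65, at 0.17 (edgeR adjusted p = 0.0426) and Nfkb1, which encodes p105 and p50, at 0.12 (edgeR adjusted p = 0.0453), while Rel was at 0.0081 and not called. Rela lost its call without shCtrl-CTRL replicate 1 or 3 or shAnxa2-OGDR replicate 1 or 3 (0.10 to 0.19), and Nfkb1 without shCtrl-CTRL replicate 2 or 3 or shAnxa2-OGDR replicate 1 or 2 (0.098 to 0.12).

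The list divides by its signs in the second pair. The cytokine and chemokine genes called here kept the sign, with log2 fold changes there of 2.17 in Il1b, 1.67 in Ccl2, 3.40 in Csf3 and 1.55 in Tnf. Relb (−0.34), Tnfaip2 (−0.37), Gadd45b (−0.21), Birc3 (−0.17), Nfkb1 (−0.14) and Nfkbib (−0.14) were higher here and lower there by the same test (log2 fold changes of the second pair).

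**Figure D3:**
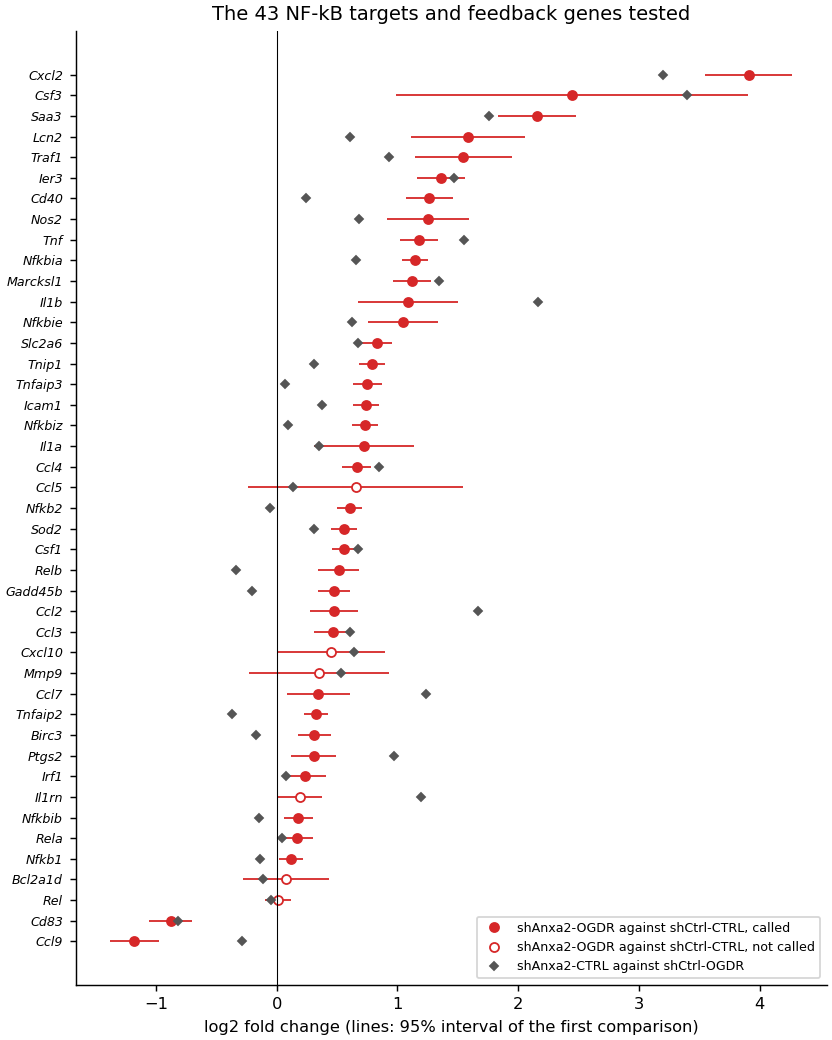
Log2 fold change in shAnxa2-OGDR against shCtrl-CTRL of the 43 NF-κB targets and feedback genes tested, with the 95% interval as a bar, and the value in shAnxa2-CTRL against shCtrl-OGDR as a diamond. Most points lie right of 0, from Cxcl2 at 3.91 down to Ccl9 at −1.18, and the diamonds of the subunit and feedback genes lie nearer 0 or left of it.

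A κB site is the sequence bound by NF-κB dimers, and letters that match its consensus were searched on both strands of the promoters in RefSeq (GRCm38.p6, 250 bases before to 50 after each transcription start). A match was found in 13 of the 31 members of the list with a promoter in that table (41.9%), in 10 of the 26 higher members (38.5%), in 569 of 9337 genes tested (6.09%) and in 1480 of all 32851 promoters (4.51%). It was found in 14 of 93 promoters of genes at least 2-fold higher (15.1%) and in 7 of 104 of genes at least 2-fold lower (6.73%). Those shares are descriptions of letters and not of binding. The promoters of 3 members are shown because they carry a match within 100 bases before the start and belong to a chemokine, an early response gene and the main inhibitor of the pathway. Capitals mark the match, and the strand printed is that of the gene, for Cxcl2 at chr5:90903649-90903948 (plus), Ier3 at chr17:35821463-35821762 (plus) and Nfkbia at chr12:55492598-55492897 (minus).
Cxcl2: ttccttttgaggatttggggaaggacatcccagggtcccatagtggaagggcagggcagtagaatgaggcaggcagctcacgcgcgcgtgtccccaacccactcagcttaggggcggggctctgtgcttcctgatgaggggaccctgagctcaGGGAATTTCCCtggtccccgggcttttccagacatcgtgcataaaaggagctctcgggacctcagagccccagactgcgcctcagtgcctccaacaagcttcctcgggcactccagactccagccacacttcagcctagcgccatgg
Ier3: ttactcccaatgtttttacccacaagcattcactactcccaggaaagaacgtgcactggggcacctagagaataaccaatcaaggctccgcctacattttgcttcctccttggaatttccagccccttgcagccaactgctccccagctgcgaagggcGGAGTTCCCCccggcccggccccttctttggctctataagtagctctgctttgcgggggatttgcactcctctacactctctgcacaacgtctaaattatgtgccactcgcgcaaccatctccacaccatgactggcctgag
Nfkbia: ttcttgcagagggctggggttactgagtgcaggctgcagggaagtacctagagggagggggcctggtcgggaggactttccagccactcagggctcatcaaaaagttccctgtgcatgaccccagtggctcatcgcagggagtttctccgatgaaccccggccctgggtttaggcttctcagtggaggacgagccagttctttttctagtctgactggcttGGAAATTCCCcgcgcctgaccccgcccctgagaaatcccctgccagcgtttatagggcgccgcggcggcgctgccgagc
The first match began 97 bases before the start in Cxcl2, which has overlapping matches on both strands, 92 bases before it in Ier3 and 29 bases before it in Nfkbia. Tnf, Il1b and Acod1 held no match to these letters in this window.

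Identity genes of microglia and macrophages were lower more often than higher. Of 27 tested, 15 were lower (55.6%) and 3 higher (11.1%), beside 18.4% and 21.5% over all genes. The median was −0.28 here and −0.21 in the second pair. The count of higher members was 1 without shCtrl-CTRL replicate 3 or shAnxa2-OGDR replicate 1. The 3 chains of C1q led the list, with C1qc at −1.85 beside the values of C1qa and C1qb. They lie next to each other on chromosome 4 and differed by similar folds. Mertk, the receptor that clears apoptotic cells (−0.87), Aif1, which encodes Iba1 (−0.68), and Adgre1, which encodes F4/80 (−0.53), were lower. Csf1r, the receptor on which microglia depend, was lower by a small amount, with 579, 584 and 589.6 CPM in shCtrl-CTRL and 498, 486 and 504 CPM in shAnxa2-OGDR (−0.24, edgeR adjusted p = 0.000128). Tmem119, a marker of resident microglia, went the other way, with 4.80, 4.84 and 4.85 CPM and 9.79, 10.7 and 10.3 CPM (1.09, SE 0.13, edgeR adjusted p = 3.90e-07). Spi1, the factor PU.1, was slightly higher (0.14), and Trem2 (0.10, 95% interval 0.0035 to 0.20), Irf8 (−0.032) and Cd68 (−0.065) were not called. Of the lower members Itgam, P2ry6 and Tyrobp lie on chromosome 7, where 38.1% of all genes tested were lower.

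Scavenger, lipid and alternative activation genes were lower as well. Mrc1, the mannose receptor CD206, had 6.35, 6.41 and 5.18 CPM in shCtrl-CTRL and 2.19, 2.74 and 3.06 CPM in shAnxa2-OGDR (−1.16, SE 0.16, edgeR adjusted p = 3.85e-06), without overlap. Msr1, scavenger receptor A (−1.59), Egr2 (−1.21) and the chemokine gene Ccl24 (−1.81) were lower too, so that 5 of 8 alternative activation genes were lower and the rest were not called (median −0.71). Without shCtrl-CTRL replicate 2 the count was 3 and the median −0.31, and the median was −0.28 to −0.30 without either of the other shCtrl-CTRL libraries. Arg1 was too low to be tested. Among 18 genes of liver X receptor targets and lipid storage 10 were lower and the rest were not called (median −0.20). They included, after Cd36 and Lpl, Abca1 (−0.39), which exports cholesterol, Ppard (−0.41), Fabp4 (−0.31) and Apoe (−0.18). Complement and Fc receptor genes were lower in 10 of 21 (47.6%) and higher in 3 (14.3%), beside 18.4% and 21.5% over all genes. C3, the central complement component, was the exception in size, with 81.2, 75.7 and 72.5 CPM in shCtrl-CTRL and 187, 179 and 164 CPM in shAnxa2-OGDR (1.21, edgeR adjusted p = 1.39e-12).

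Innate receptors were mixed, with 9 of 29 higher and 7 lower. The activating receptors Trem1 (1.15), Trem3 (1.09), Clec4e (1.05) and Clec4d (0.84) and the lipopeptide receptor Tlr2 (0.53) were higher. The nucleic acid receptors Tlr8 (−2.31), Tlr13 (−0.75) and Tlr7 (−0.39) were lower, together with Tlr4 (−0.32), the receptor for lipopolysaccharide. In Tlr8 the level went from 0.835, 1.28 and 0.882 CPM in shCtrl-CTRL to 0.306, 0.199 and 0.0970 CPM in shAnxa2-OGDR. Of 11 inflammasome genes 5 were lower (45.5%), led by the sensors Nlrp1b (−0.83) and Nlrc4 (−0.83). The 2 higher genes (18.2%) were Casp4 (0.74) and Nlrp3 (0.61). The count of lower inflammasome genes was 3 without shCtrl-CTRL replicate 1 or 3 or shAnxa2-OGDR replicate 3. Interferon-stimulated genes were nearer the shares over all genes, with 10 of 36 higher (27.8%) and 5 lower (13.9%). The lower count was 3 without shAnxa2-OGDR replicate 1 and 8 with no filter. Oasl2 (0.75) and Usp18 (0.71) were among the higher and Ifi204 (−0.85) among the lower. Of 27 JAK-STAT genes 9 were higher (33.3%), among them the feedback inhibitor Socs3 (0.88) and the kinase Pim1 (0.48), and 4 were lower (14.8%).

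Genes of disease-associated microglia were lower in 8 of 20, with the growth factor Igf1 (−0.95) and the integrin chain Itgax (−0.78) beside Lpl, and higher in 4, with the cystatin Cst7 (0.84). The count of 4 was 2 without any single library other than shAnxa2-OGDR replicate 1, and also 2 with library totals or no filter. Lysosomal genes were split, 8 higher and 11 lower of 35, with Ctsc (−0.77) lowest and Gusb (0.37) highest among those called, which is 22.9% and 31.4% beside 21.5% and 18.4% over all genes. Without shAnxa2-OGDR replicate 3 there were 5 higher, and without replicate 2 there were 7 lower. Matrix and adhesion genes had 8 higher (32%) and 10 lower (40%) of 25. The gelatinase Mmp2 (0.93) was higher, and Itga6 (−1.24) and the protease Adam8 (−0.92) lower. Of 22 TGF-β and BMP genes 9 were lower, including the inhibitors of differentiation Id2 (−0.79) and Id3 (−0.64), and 4 were higher (1 without shCtrl-CTRL replicate 3 and 2 without shAnxa2-OGDR replicate 1 or 2). Of 13 collagen genes 1 was called, Col4a5 (−0.74).

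**Figure D4:**
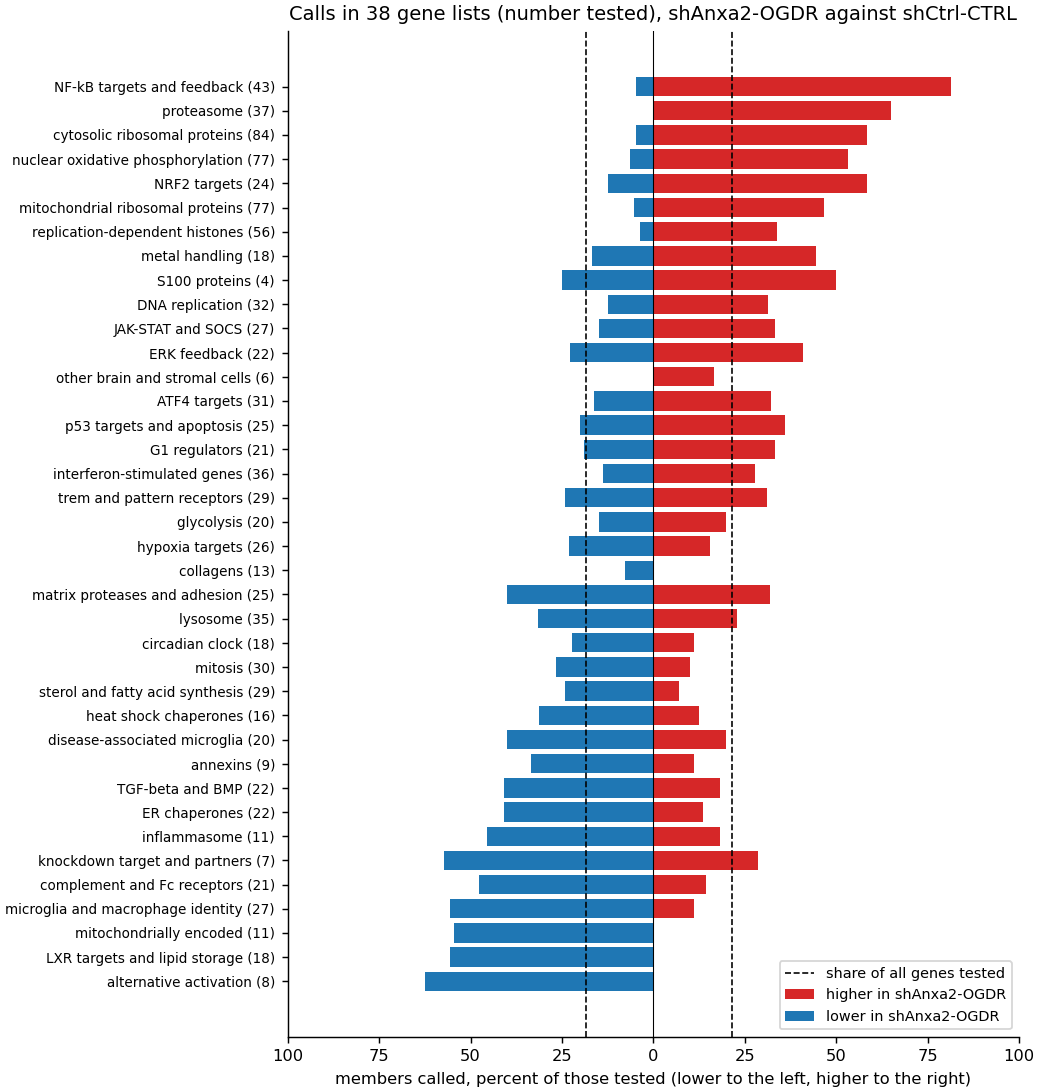
Share of the tested members of 38 gene lists that were called higher (right) or lower (left) in shAnxa2-OGDR against shCtrl-CTRL, in percent, with dashed lines at the shares over all genes, 21.5% and 18.4%. The NF-κB, proteasome, NRF2, ribosomal and oxidative phosphorylation lists are among those that reach furthest to the right, and the alternative activation, knockdown target and partners, lipid, identity and mitochondrially encoded lists among those furthest to the left.

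Hypoxia and glycolysis genes differed little here. After OGD/R 16 of 26 and 15 of 20 were higher in the control line, and 18 and 15 were lower in the knockdown line. Of 26 hypoxia targets 4 were higher (15.4%) and 6 lower (23.1%), with a median of −0.045. These were near the shares over all genes, 21.5% and 18.4%. The mitophagy receptor Bnip3 was lower (−0.76), and Higd1a (0.57) was higher. Vegfa had 35.8, 39.3 and 38.4 CPM in shCtrl-CTRL and 33.6, 35.1 and 34.4 CPM in shAnxa2-OGDR (−0.14, 95% interval −0.26 to −0.019), which did not overlap but were not called, while the control line after OGD/R had 71.1, 73.1 and 70.3 CPM (a gene chosen after its values were seen). Of 20 glycolysis genes 4 were higher and 3 lower, all by less than 1.2-fold, with the lactate exporter Slc16a3 at 0.24 and Gpi1 at −0.24 as the extremes. The count of lower glycolysis genes was 5 without shAnxa2-OGDR replicate 3. The count of lower hypoxia targets was 2 without shCtrl-CTRL replicate 3 and 3 without shAnxa2-OGDR replicate 1.

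Stress responses went in different directions. NRF2 targets, the antioxidant genes, were higher in 14 of 24 and lower in 3 (median 0.19). They included the glutathione enzymes Gsto1 (0.56) and Gsr (0.50), the cystine carrier Slc7a11 (0.46) and thioredoxin, Txn1 (0.44), while catalase, Cat, was lower (−0.42). The ferritin chains parted, with Fth1 higher and Ftl1 lower (−0.39), the latter a gene of chromosome 7. Metal-handling genes were higher in 8 of 18 and lower in 3, with the metallothionein Mt1 at 0.55. Chaperones of the endoplasmic reticulum were lower in 9 of 22 and higher in 3. Hsp90b1 had 504, 545 and 549.97 CPM in shCtrl-CTRL and 389, 396 and 308 CPM in shAnxa2-OGDR (−0.55, edgeR adjusted p = 1.90e-06), without overlap, and 0.069 in the second pair. Heat shock chaperones were lower in 5 of 16, with Hsp90aa1 at −0.23, and higher in 2. The lower share was 31.2% beside 18.4% over all genes, and the count was 3 without shCtrl-CTRL replicate 2 or 3 and 2 without shAnxa2-OGDR replicate 3. ATF4 targets were near the background, 10 higher and 5 lower of 31 (3 lower without shAnxa2-OGDR replicate 2). Of 29 sterol and fatty acid synthesis genes 7 were lower (24.1%) and 2 higher (6.90%), with Insig1, the retention protein of the sterol sensor, at −1.07. Clock genes were higher in 2 of 18 (11.1%) and lower in 4 (22.2%), beside 21.5% and 18.4% over all genes, with Cry1 at 0.49. The lower count was 2 without shCtrl-CTRL replicate 2 or shAnxa2-OGDR replicate 1. The higher count was 1 without shCtrl-CTRL replicate 3.

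Genes of translation, respiration and protein breakdown were higher in many members by small amounts. Over all genes 21.5% were higher and 18.4% lower, with a median log2 fold change of 0.011. The higher share was 58.3% for cytosolic and 46.8% for mitochondrial ribosomal genes, 53.2% for oxidative phosphorylation and 64.9% for proteasome genes. Cytosolic ribosomal protein genes were higher in 49 of 84 and lower in 4, with a median log2 fold change of 0.19 and Rpl37 (0.81), Rps28 (0.76), Rps29 (0.75) and Rps26 (0.74) at the top. Reads of ribosomal protein genes can be shared with processed pseudogenes, so single members are uncertain. Mitochondrial ribosomal protein genes were higher in 36 of 77 and lower in 4 (median 0.14), led by Mrpl14 (0.71). Nuclear genes of oxidative phosphorylation were higher in 41 of 77 and lower in 5 (median 0.16), with the complex I subunit Ndufs6 (0.81) and the complex III subunit Uqcrq (0.73) as examples. The smaller counts of lower members moved with single libraries, to 2 without shCtrl-CTRL replicate 1 and 1 without shAnxa2-OGDR replicate 1 or 2 for cytosolic ribosomal genes, to 2 without shCtrl-CTRL replicate 3 or shAnxa2-OGDR replicate 3 for mitochondrial ribosomal genes and to 2 without shAnxa2-OGDR replicate 3 for oxidative phosphorylation genes. Proteasome genes were higher in 24 of 37 and the other 13 were not called (median 0.17). Psmd10, a chaperone of proteasome assembly, differed most, with 40.97, 41.4 and 42.2 CPM in shCtrl-CTRL and 79.1, 76.9 and 67.1 CPM in shAnxa2-OGDR (0.84, SE 0.062, edgeR adjusted p = 1.87e-10).

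The 13 mitochondrially encoded genes, 11 of them tested, did not share the direction of the nuclear genes. Of these, 6 were lower and the other 5 were not called (median −0.25), with mt-Nd5 (−0.32), mt-Cytb (−0.31) and mt-Nd1 (−0.28) among them. In the second pair their median was 0.073. The count of lower genes was 3 without shCtrl-CTRL replicate 2 and 3 with DESeq2. Replication-dependent histone genes, whose near-identical copies share reads, were higher in 19 of 56 (33.9%, beside 21.5% over all genes) and lower in 2. They were higher in 9 without shAnxa2-OGDR replicate 3.

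Transcript length moved with these lists. The median log2 fold change of all genes was 0.18 for transcripts under 1 kb (619 genes), 0.098 for 1 to 2 kb, 0.018 for 2 to 4 kb and −0.055 for 4 kb or more. Under 1 kb, the ribosomal, oxidative phosphorylation and proteasome genes had a median of 0.22 and the other 501 genes 0.17. From 2 to 4 kb the values were 0.13 for 37 genes of these lists and 0.017 for the other genes, and at 4 kb or more 0.14 for 13 genes and −0.056 for the others. The second pair had the same order, from 0.12 under 1 kb to −0.054 at 4 kb or more. The part of length in the differences of these lists was not tested. Median lengths were 925.5 bases for cytosolic ribosomal protein genes and 891.5 for nuclear oxidative phosphorylation genes, against 3088 for all genes. They were 2209 for the NF-κB list and 2242 for the identity list, where the part of length was not tested either.

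Growth and cell death genes held few large differences. The shares below stand beside 21.5% higher and 18.4% lower over all genes. Besides Ccnd2, Cdkn2c, the kinase inhibitor p18 (0.34), was higher and Rb1 lower (−0.46). Of 21 G1 regulators 7 were higher (33.3%) and 4 lower (19.0%). DNA replication genes were higher in 10 of 32 (31.2%) and lower in 4 (12.5%), with Gins2 (0.44) and Rrm1 (−0.40) at the ends. Mitosis genes were lower in 8 of 30 (26.7%) and higher in 3 (10%), with Kif11 at −0.41, Mki67 at −0.39 and Cdc20 at 0.35. Early genes downstream of ERK were higher in 9 of 22 (40.9%), with Etv4 at 1.09. They were lower in 5 (22.7%), with Fos at −0.95 against 0.54 in the second pair. Of 25 p53 targets and apoptosis genes 9 were higher (36%) and 5 lower (20%). Bcl2, which blocks apoptosis, had 15.1, 15.02 and 13.7 CPM in shCtrl-CTRL and 19.5, 20.5 and 21.6 CPM in shAnxa2-OGDR (0.49, edgeR adjusted p = 1.93e-05). Bax, which permeabilizes mitochondria, had 79.02, 73.3 and 79.5 CPM and 78.3, 74.97 and 78.7 CPM with a 95% interval of the log2 fold change of −0.11 to 0.11.

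Some abundant genes did not differ measurably. By the rule of the smallest log2 fold change among genes of at least 100 CPM, these were Trim25 (95% interval −0.10 to 0.10), Gpnmb (−0.077 to 0.077), Ctsb (−0.073 to 0.073), Prdx3 (−0.13 to 0.13) and Tgoln1 (−0.12 to 0.12). Gpnmb, a glycoprotein of activated macrophages, had 5651, 5513 and 5617 CPM in shCtrl-CTRL and 5719, 5491 and 5572 CPM in shAnxa2-OGDR. Its 6 libraries overlapped, although it was at 8681, 8539 and 8873 CPM in shCtrl-OGDR and 8059, 7456 and 7213 CPM in shAnxa2-CTRL. Ctsb, the lysosomal protease cathepsin B, had 3699, 3656 and 3636 CPM and 3731, 3615 and 3647 CPM in the pair. Il6 was too low to be tested.

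Genes of chromosome 7 were lower more often than those of the other chromosomes. Of 895 tested, 341 were lower (38.1%) and 45 higher (5.03%), with a median log2 fold change of −0.17, and 15.9% of all lower calls came from this chromosome, which holds 7.70% of the genes tested. With its genes split by position into 4 blocks of like size, each block had a negative median, from −0.14 to −0.18. In the single libraries of shAnxa2-OGDR the median ratio to shCtrl-CTRL was −0.16, −0.17 and −0.14. The share of all counts on chromosome 7 was 6.51% to 6.53% in shCtrl-CTRL and 5.71% to 5.80% in shAnxa2-OGDR, without overlap. It was 5.89% to 5.92% in shAnxa2-CTRL and 6.97% to 6.999% in shCtrl-OGDR, and in the second pair 49.7% of its genes were lower, with a median of −0.24. Outside chromosome 7, 2450 genes were higher (22.8%) and 1801 lower (16.8%). Of the 143 genes at least 2-fold lower, 19 lie on it, C5ar1 and C5ar2 among them. Itgam, P2ry6, Tyrobp and Ftl1, named above as lower, lie on it as well. Chromosome 8 stood on the other side, with 36.3% of its genes higher and a median of 0.13, followed by chromosome 14 at 0.11. The number of copies of these chromosomes in the lines was not measured here, and the part of the chromosome in the differences of single genes was not tested.

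**Figure D5:**
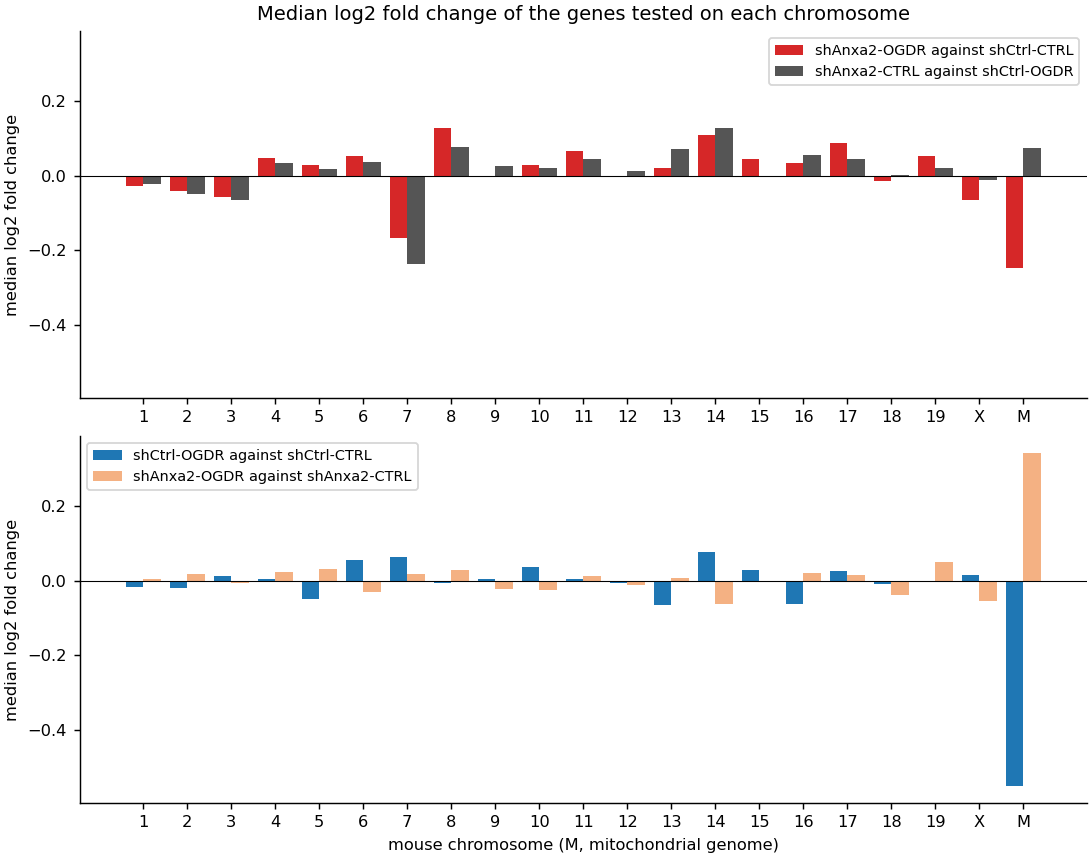
Median log2 fold change of the genes tested on each chromosome, for both pairs that differ in line and treatment (top) and for OGD/R within each line (bottom). Chromosome 7 is low in both pairs, at −0.17 and −0.24, and near 0 for OGD/R within either line (0.064 and 0.017), while the median of the mitochondrial genome moves with OGD/R in opposite directions in the lines, as the libraries are titled.

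Some genes with a 2-fold difference lay side by side. Within 100 kb of each other, 34 of the 259 genes formed 16 groups, and in 14 groups the members differed in 1 direction. The C1q genes were such a group, as were Trem1 and Trem3, C5ar1 and its neighbour C5ar2 (−1.24), and Cyp11a1 with Stra6 (2.20), a transporter of retinol. C5ar1 and C5ar2 lie on chromosome 7, where 38.1% of all genes tested were lower. So do Tnni3 with Dnaaf3, Ceacam1 with Ceacam2 and Lsp1 with Prr33, groups in which both members were lower. All the groups were found after the values were seen. How often genes tested lie this near each other, and how often such neighbours share a direction, was not computed. The counts therefore have no background beside them.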

How the data were processed

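RNA-seq of BV2 cells was analysed for 12 libraries in 4 groups of 3, grouped by their titles. The authors deposited raw counts of reads per gene for 21834 protein-coding genes, and this is the unit used. The submitters' processing notes name HISAT2 2.0.4 and mm39, while the study's methods, given for hippocampal RNA, name Tophat 2 and HTSeq, and whether strand was used in counting is not given in the sources used here, so reads of overlapping genes cannot be told apart. The table also holds 12 columns of size-factor normalized counts, which were not used. Counts were 0 in every library for 5636 genes, 14 genes had no name, and genes that share 1 of 20 duplicated names (Aldoa among them) were left out of the gene lists.

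Counts were analysed in R 4.3.3 with edgeR 4.0.16: TMM scaling, a filter that kept genes reaching 0.5 CPM in 3 or more of the 12 libraries, 1 quasi-likelihood model over the 4 groups and Benjamini-Hochberg adjustment over the 11626 genes tested. A gene was called at an adjusted p under 0.05. CPM values are scaled by TMM. The SE was computed from each log2 fold change and its F statistic (absolute value over root F). On simulated counts 95% of 100 genes changed 1.5-fold and 100% of 100 genes changed 2-fold were called among 11487 genes tested, 12 of 207 calls were false, and a contrast without change gave 0 calls. The simulation gave all genes the same spread and changed far fewer genes than were called in the data. The changed genes had at least 1 CPM, and no library was outlying. These rates may therefore not hold for the data. The length of a gene was that of its longest protein-coding GENCODE transcript, matched by gene for 11586 genes.

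Named genes are Anxa2 and the genes the study measured in these cells, 15 higher and 15 lower genes ranked by log2 fold change (called, a mean of at least 1 CPM, no overlap between libraries, no predicted names), the 8 per direction with the largest CPM difference, up to 4 called members of each of 38 lists, the 5 genes of at least 100 CPM with the smallest change, and genes that a single library decides. Others were named after their values were seen. Some genes that these rules name are not reported here. The genes and lists were chosen with earlier results of these data known. The alternatives were median-of-ratios size factors, library totals alone, no filter or a filter of 1 CPM, a fit of only the 6 libraries, the replicate number as a block, each library left out, DESeq2 1.42.0 and fold limits with unadjusted p. Figures were drawn with matplotlib 3.10.9.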

Additional observations from a re-analysis of the deposited data

Results flagged for a closer look

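The effect of OGD/R on Anxa2 differed between the lines. Anxa2 was higher after OGD/R in the control line, with a log2 fold change of 0.70, and lower after OGD/R in the knockdown line, with −1.04. The difference of these changes, shAnxa2 minus shCtrl, was −1.74 (SE 0.10, interaction term of edgeR's quasi-likelihood model, adjusted p = 3.35e-13). It bears on the comparison of shAnxa2-OGDR with shCtrl-CTRL because the shAnxa2-OGDR libraries held the lowest Anxa2 of the 4 groups. The direction in the knockdown line rests on the treatment titles of its libraries, in which the median of the hypoxia targets was lower in the libraries titled OGDR (−0.53) and higher in the control line (0.46). Were these titles exchanged, the change of Anxa2 in the knockdown line would turn its sign and have that of the control line, and the lowest Anxa2 would be in the untreated knockdown libraries. This was not tested.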

How the results depend on the processing

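The numbers of genes higher and lower stayed within 1.5 times their values (2495 and 2142) in the 13 alternatives that kept the adjusted p limit. With each library left out in turn, 2065 to 2267 genes were higher and 1802 to 1943 lower, of which 97 to 110 and 127 to 151 were at least 2-fold. Scaling by library totals gave 2169 higher and 2433 lower, no filter 2199 and 2435, and the fit of only the 6 libraries 2225 and 2300, so the larger of both numbers changed sides; the median of all genes shifted by at most 0.024. DESeq2 called 2401 higher and 2142 lower. An unadjusted p under 0.05 with a fold of 1.2 up or 0.8 down gave 1581 and 1102 genes, a fold of 1.5 gave 350 and 425, and a fold of 2 gave 128 and 158, each smaller because a fold limit was added. Anxa2 ranged from −3.08 to −3.16. The deviations of libraries with the same replicate number correlated at −0.01, 0.01 and 0.03. For 2 of the shCtrl-CTRL libraries the best partner in shAnxa2-OGDR had the same number. These values do not decide whether the numbers pair the libraries. With the replicate number as a block 2481 genes were higher and 2132 lower, 113 and 140 of them at least 2-fold.

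Of 189 named genes, 165 kept direction and side of the limit in all 13 alternatives. Lars2 turned to −0.15 without shAnxa2-OGDR replicate 1 (edgeR adjusted p = 0.767), the library that holds its counts, and stood at 4.61 at the highest, without shAnxa2-OGDR replicate 2. Calls were lost in at least 1 alternative by Actb, Ankrd37, Arntl, Bmper, Cdkn1c, Chac1, Cp, Csf3, Dnajb4, Egln3, Hsf1, Itgb3, Nfkb1, Per1, Ptgs2, Rela, Rora, Rtp4, S100a11, Slc1a2, Tpi1, Trp53inp1 and mt-Nd2, and the cause was not tested. Of the list counts, 916 of 988 stayed within 1.5 times. Those that did not were mostly the smaller side of a list, such as lower proteasome genes, 1 to 5 in 9 alternatives. At this depth genes of a few counts per library have intervals that span 2-fold or more.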
